A study of Homo sapiens with 6 samples.

Results

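Aminoacyl-tRNA synthetases are the enzymes that join each amino acid to its transfer RNA, and their mRNAs were compared between HEK293 cells in which CNBP had been knocked out with CRISPR-Cas9 and wild-type HEK293 cells. The set was chosen by gene symbol and holds 39 of the 19892 genes of the table, namely 20 cytosolic synthetase genes, 16 mitochondrial ones and 3 genes for the scaffold proteins AIMP1, AIMP2 and EEF1E1. HEK293 is a human line derived from embryonic kidney. The zinc-knuckle protein CNBP binds nucleic acids, and the series is titled for its contacts with G-rich stretches of coding sequence and for the translation of those mRNAs. The 6 libraries of total RNA form a CNBP knockout group and a wild-type group of 3 each, grown in the same medium. The labels do not say how many clones the knockout cells came from, or whether the libraries of a group were separate cultures.

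The table gives 1 value per gene for the knockout group and 1 for the wild-type group, in FPKM, the number of sequenced fragments scaled to the length of the transcript and to all mapped fragments. No value per library was used, so there is no standard deviation, interval or test for any difference described here, and no difference can be set against the spread between libraries. Depth per library is unknown. Each ratio is on the log2 scale, with knockout over wild type. CNBP mRNA had 214 FPKM in the knockout column and 202 FPKM in the wild-type column, so its level does not check the column labels. VIM (vimentin), with 519.9 FPKM in knockout and 510.4 FPKM in wild type, and CDH2 (N-cadherin), with 37.9 FPKM in knockout and 34.0 FPKM in wild type, were abundant among the chosen HEK293 markers, NEFM and PAX2 lay under 3 FPKM, and LHX1 and NEFL were listed at 0. Markers of blood, endothelium, liver and islet lay under 1 FPKM or were listed at 0 in both columns. Of the fibroblast markers, COL1A1 had 38.2 FPKM in knockout and 41.3 FPKM in wild type, and COL3A1 had 11.5 FPKM in knockout and 12.1 FPKM in wild type.

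Each synthetase recognises its own amino acid and the matching tRNAs. Cytosolic enzymes serve the ribosomes of the cytoplasm, and a separate set of nuclear genes, with symbols ending in 2, encodes the enzymes that serve the ribosomes inside mitochondria. In animals several cytosolic synthetases are held together with AIMP1, AIMP2 and EEF1E1 in a multi-synthetase complex. Many cytosolic synthetase genes are known targets of ATF4, the transcription factor of the integrated stress response, which binds a C/EBP-ATF response element in their promoters. Uncharged tRNA activates the kinase GCN2 (gene EIF2AK4), which raises ATF4 synthesis.

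That element was looked for in the promoters, and the stretches that hold it in cytosolic synthetase genes are shown because these genes include the members with the highest and the lowest ratio. The letters searched were TGATGNAAN on both strands, in windows from 250 bases before to 50 bases after each RefSeq start (GRCh38.p14). Of the 39 genes, 33 had a window in the table used. The motif was present in 7 of 16 cytosolic genes with a window, 1 of 14 mitochondrial genes (YARS2) and 0 of 3 scaffold genes. It was present in 4.45% of the 27305 genes with any window and in 3.61% of all windows. Each line gives 61 bases on the strand of the gene with the match in capitals. In IARS, CARS, MARS, TARS, GARS and AARS the match is on the opposite strand, so that its reverse complement appears in the line.
IARS: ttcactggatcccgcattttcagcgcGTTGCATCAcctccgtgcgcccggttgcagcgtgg
CARS: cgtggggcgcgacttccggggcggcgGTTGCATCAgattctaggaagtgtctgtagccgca
MARS: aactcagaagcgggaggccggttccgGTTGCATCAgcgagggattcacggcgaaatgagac
TARS: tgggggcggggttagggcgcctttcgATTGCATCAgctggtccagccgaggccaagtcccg
GARS: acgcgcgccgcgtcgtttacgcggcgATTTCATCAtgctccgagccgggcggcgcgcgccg
NARS: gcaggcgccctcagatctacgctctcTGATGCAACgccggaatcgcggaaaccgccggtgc
AARS: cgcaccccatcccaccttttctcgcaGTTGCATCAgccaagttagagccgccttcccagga

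These stretches lie at chr9:92293677-92293737 (minus strand), chr11:3057392-3057452 (minus), chr12:57488037-57488097 (plus), chr5:33440940-33441000 (plus), chr7:30594818-30594878 (plus), chr18:57621788-57621848 (minus) and chr16:70289660-70289720 (minus). The matches in IARS, CARS, MARS and TARS begin within 14 bases of an annotated start, at -14, -3, -5 and 1, counted with the start as 0. That in NARS begins at 14, inside the transcript, and that in GARS at -34. The match in AARS begins farther upstream, at -188. IARS, CARS, MARS and AARS share the same 9 letters on the strand of the gene, GTTGCATCA. The match in NARS, TGATGCAAC, is the reverse complement of these letters. A match of letters is a description and does not show that a factor binds there.

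None of the 37 members with a value above 0 differed by 1.5-fold or more between the columns. The comparison held 13219 genes that reached 1 FPKM in either column and were above 0 in both. Of the 37 members among them, 0 were higher in knockout and 0 lower by that fold, against 1.48% higher and 2.78% lower over all 13219. At 1.2-fold, 1 member was higher (IARS) and 1 lower (AARS), where 8.62% of all compared genes were higher and 13.2% lower. In the band with a mean of at least 50 FPKM, 22 members were again 1 higher (IARS) and 1 lower (AARS) at 1.2-fold, where 4.39% of the 2528 genes were higher and 5.66% lower. At 1.5-fold this band had 0.119% higher and 0.475% lower, and no member. The log2 ratios of the members ran from -0.37 to 0.33 with a median of 0.00, and 22 of the 37 lay within 0.10 of 0. Of the members, 19 had a ratio above 0 (51.4% of 37), where 48.7% of all compared genes did.

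**Figure D1:**
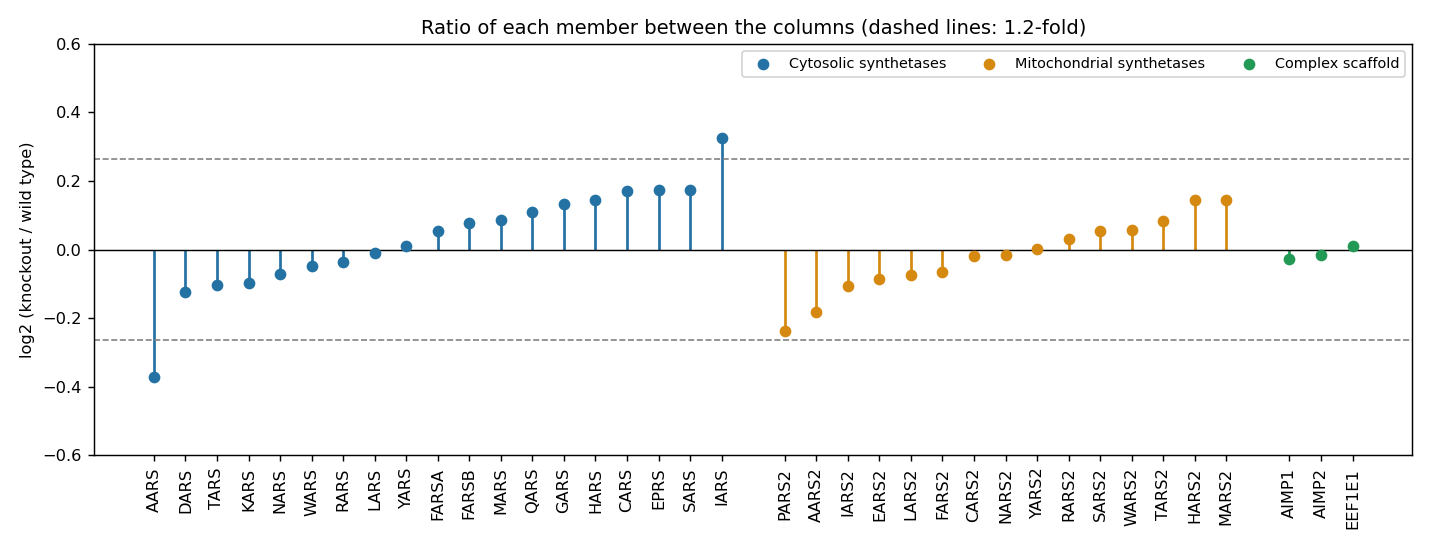
Each point is the log2 ratio of the knockout over the wild-type FPKM of a member, in order within the cytosolic enzymes, the mitochondrial enzymes and the scaffold, and the dashed lines mark 1.2-fold. IARS (0.33) and AARS (-0.37) are the points outside the lines.

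IARS, which charges tRNA with isoleucine, had 295 FPKM in the knockout column and 236 FPKM in the wild-type column, a level 25.3% higher in knockout (log2 ratio 0.33). It was among the most abundant members in both columns, and 5.84% of all compared genes had a ratio at least as high. AARS, which charges tRNA with alanine, had 59.8 FPKM in knockout and 77.5 FPKM in wild type (log2 ratio -0.37), a level that was 1.30-fold lower in knockout. A ratio that low or lower was found in 7.35% of all compared genes, and the 20 nearest genes to AARS had a median of -0.18. Both genes carry the same response element letters shown above, and they stand at opposite ends of the set.

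The other cytosolic enzymes that stood above 0 did so by smaller amounts. SARS, the serine enzyme, had 103 FPKM in knockout and 91.6 FPKM in wild type (0.17), EPRS, which joins glutamate and proline activities in a single protein, had 122 FPKM in knockout and 108 FPKM in wild type (0.17), and CARS, the cysteine enzyme, had 21.2 FPKM in knockout and 18.8 FPKM in wild type (0.17). HARS (histidine) had a log2 ratio of 0.14, GARS (glycine) of 0.13, QARS (glutamine) of 0.11 and MARS (methionine) of 0.09. FARSB and FARSA, the subunits of the phenylalanine enzyme, had 0.08 and 0.05, and YARS (tyrosine) had 0.01. Below 0 stood DARS, the aspartate enzyme, with 95.3 FPKM in knockout and 103.8 FPKM in wild type (-0.12), TARS (threonine, -0.10), KARS (lysine, -0.10), NARS (asparagine, -0.07), WARS (tryptophan, -0.05), RARS (arginine, -0.04) and LARS (leucine, -0.01). In all, 11 of 19 cytosolic enzymes stood above 0 and 8 below, with a median of 0.05, while the median of all compared genes was -0.01. GARS and KARS each supply the enzyme of both compartments from a single gene.

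Among the mitochondrial enzymes 7 of 15 stood above 0 and 8 below, with a median of -0.01. MARS2 (methionine) had 8.81 FPKM in knockout and 7.97 FPKM in wild type (0.14), and HARS2 (histidine) had 25.2 FPKM in knockout and 22.8 FPKM in wild type (0.14). At the other end, PARS2, the proline enzyme, had 3.59 FPKM in knockout and 4.23 FPKM in wild type (-0.24), and AARS2 (alanine) had 14.2 FPKM in knockout and 16.1 FPKM in wild type (-0.18). PARS2 was the least abundant member of those above 0, and with a pseudocount of 1 its log2 ratio was -0.19. IARS2 (isoleucine) stood at -0.11, EARS2 (glutamate) at -0.08, LARS2 (leucine) at -0.07, FARS2 (phenylalanine) at -0.06, CARS2 (cysteine) at -0.02 and NARS2 (asparagine) at -0.01. TARS2 (threonine) stood at 0.08, WARS2 (tryptophan) at 0.06, SARS2 (serine) at 0.05, RARS2 (arginine) at 0.03 and YARS2 (tyrosine) at 0.00. The median of the cytosolic enzymes was 0.07 above that of the mitochondrial ones on the log2 scale, where the ratios of single members ran from -0.37 to 0.33 in the cytosolic group and from -0.24 to 0.14 in the mitochondrial one.

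The scaffold mRNAs were nearly equal between the columns. AIMP1 had 37.9 FPKM in knockout and 38.7 FPKM in wild type (-0.03), AIMP2 had 25.9 FPKM in knockout and 26.2 FPKM in wild type (-0.01), and EEF1E1 had 73.3 FPKM in knockout and 72.8 FPKM in wild type (0.01). AIMP2 links the lysine and aspartate enzymes to the complex, and EEF1E1 is also known as AIMP3. The 8 synthetases of the complex (EPRS, IARS, LARS, MARS, QARS, RARS, KARS and DARS) had a median of 0.04, with 4 above 0 and 4 below. The 11 compared cytosolic enzymes outside it had a median of 0.05, with 7 above 0 and 4 below.

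Levels of the members spanned a wide range within each column. FPKM is a value per length of transcript, so levels of different genes can be set side by side on it, but only roughly. Other differences between genes, such as overlapping gene models, remain in it. In the knockout column the most abundant member was MARS with 446 FPKM, followed by IARS (295), TARS (287), QARS (190), LARS (180), GARS (160) and YARS (157). In the wild-type column the order was MARS with 420 FPKM, TARS (308), IARS (236), LARS (181), QARS (176), YARS (156) and GARS (146). The same 7 genes led both columns, and 3 neighbouring pairs stood in the opposite order, namely IARS and TARS, QARS and LARS, and GARS and YARS. No spread between libraries is known that could tell such neighbours apart. CARS was the least abundant compared cytosolic enzyme, with 21.2 FPKM in knockout and 18.8 FPKM in wild type. Of the cytosolic enzymes, 18 of 19 had a mean of at least 50 FPKM, against 3 of 15 mitochondrial ones.

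**Figure D2:**
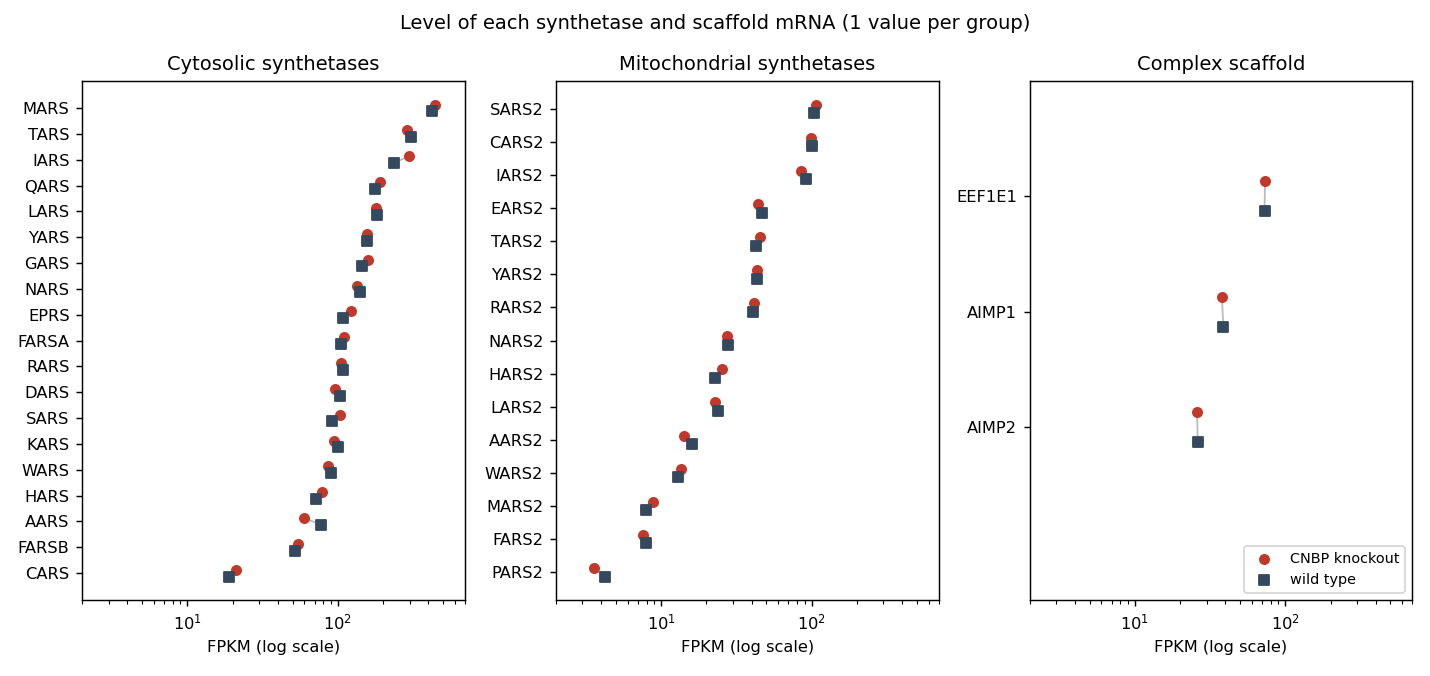
FPKM on a log scale of every compared member, with the knockout value as a red circle and the wild-type value as a dark square on the same row, ordered by mean level within the cytosolic enzymes, the mitochondrial enzymes and the scaffold. The cytosolic enzymes run from CARS to MARS, which has a mean of 433 FPKM, and the circle and the square lie close together on most rows.

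The mitochondrial enzymes were led by SARS2, with 107.5 FPKM in knockout and 103.6 FPKM in wild type, CARS2, with 99.1 FPKM in knockout and 100.4 FPKM in wild type, and IARS2, with 85.4 FPKM in knockout and 92.0 FPKM in wild type. MARS2, FARS2 and PARS2 had means under 10 FPKM. Summed over the enzymes that were above 0, the cytosolic ones had 2778 FPKM in knockout and 2689 FPKM in wild type, and the mitochondrial ones 589.6 FPKM in knockout and 593.4 FPKM in wild type. The cytosolic enzymes made up 82.5% of the summed synthetase level in knockout and 81.9% in wild type.

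For 12 amino acids a cytosolic enzyme and a mitochondrial counterpart that share a symbol, such as MARS and MARS2, were both above 0. The cytosolic mRNA was the more abundant in 10 of these pairs in both columns, with a median of 3.90-fold over the 12 pairs in knockout and 4.19-fold in wild type. MARS exceeded MARS2 the most, 50.6-fold in knockout and 52.6-fold in wild type. The exceptions were cysteine and serine. CARS stood at 0.214 times the level of CARS2 in knockout and 0.187 times in wild type, and SARS at 0.960 times the level of SARS2 in knockout and 0.884 times in wild type. Outside these pairs, phenylalanine is served in the cytosol by FARSA, with 109.6 FPKM in knockout and 105.6 FPKM in wild type, and FARSB, with 54.6 FPKM in knockout and 51.8 FPKM in wild type, while the mitochondrial FARS2 had 7.53 FPKM in knockout and 7.88 FPKM in wild type. Glutamate and proline share EPRS in the cytosol, and EARS2 (44.1 FPKM in knockout, 46.7 FPKM in wild type) and PARS2 both lay below it in both columns.

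**Figure D3:**
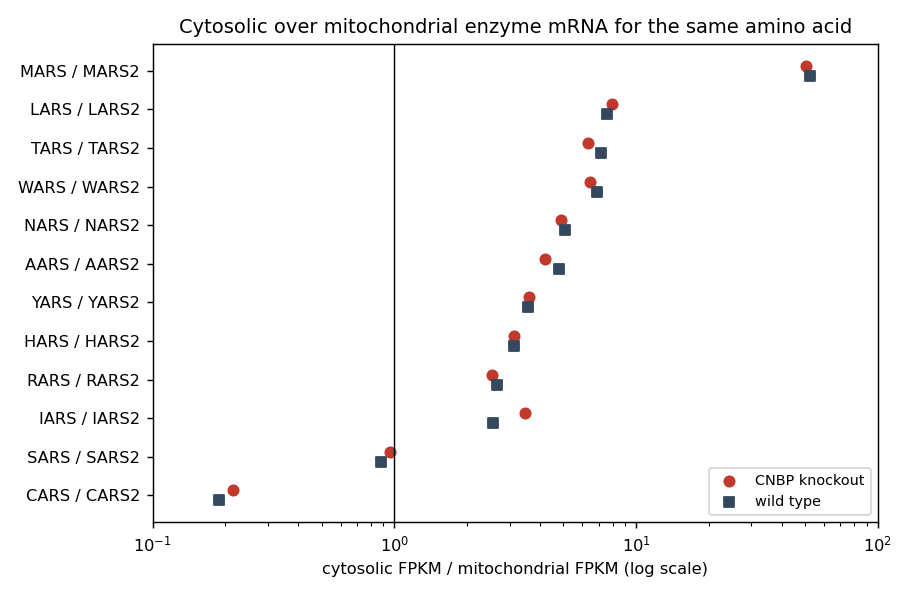
For the 12 amino acids whose cytosolic and mitochondrial enzymes share a symbol and were above 0, the FPKM of the cytosolic enzyme over that of its mitochondrial counterpart on a log scale, with knockout as red circles and wild type as dark squares. MARS over MARS2 lies at 50.6 in knockout and 52.6 in wild type, CARS over CARS2 at 0.214 in knockout and 0.187 in wild type, and the vertical line marks equal levels.

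Between the columns, the enzymes of 7 pairs stood on the same side of 0 and those of 5 pairs on opposite sides. The isoleucine pair lay farthest apart, with IARS at 0.33 and IARS2 at -0.11, and the cytosolic over mitochondrial level was 3.46 in knockout and 2.56 in wild type. The alanine enzymes were both lower in the knockout column, AARS at -0.37 and AARS2 at -0.18. The histidine enzymes HARS and HARS2 both stood at 0.14, and their ratio of levels was 3.13 in either column. Their gene models overlap on opposite strands, and the part of shared reads in their values was not tested.

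HARS and HARS2 are neighbours on chromosome 5 that are read in opposite directions from a shared promoter, so the stretch common to their promoter windows is shown. It covers chr5:140691321-140691504 in GRCh38.p14, 184 bases on the plus strand, with the 86 bases from the HARS start to the HARS2 start in capitals. HARS is read leftward from the first capital and HARS2 rightward from the last.
HARS and HARS2: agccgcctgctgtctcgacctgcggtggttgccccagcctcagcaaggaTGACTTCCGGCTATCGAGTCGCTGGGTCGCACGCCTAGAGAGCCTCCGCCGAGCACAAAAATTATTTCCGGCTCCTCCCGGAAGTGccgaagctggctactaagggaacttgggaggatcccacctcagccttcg

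The RefSeq starts lie 85 bases apart in this stretch, and GC makes up 61.4% of it. Of the compared members, 10 had a gene on the opposite strand whose annotated start lay within 1000 bases of their own. These make 9 pairs, since HARS and HARS2 are each other's partner, and both genes stood on the same side of 0 in 5 pairs and on opposite sides in 4. The same share over all compared genes with such a partner was not counted. SARS2 and its partner MRPS12, a mitochondrial ribosomal protein gene, stood at 0.05 and 0.11. EARS2 and UBFD1 stood at -0.08 and -0.42, and KARS and TERF2IP, which encodes a telomere protein, at -0.10 and -0.20. On opposite sides were RARS2 (0.03) and ORC3 (-0.10), CARS2 (-0.02) and ING1 (0.08), FARS2 (-0.06) and LYRM4 (0.01), and AIMP2 (-0.01) and PMS2 (0.05). Gene models of 13 members overlap another compared gene in GENCODE release 29. Whether reads were counted by strand is not stated in the labels or notes, so those from such overlaps cannot be assigned with certainty. Gene models overlapped in all 5 pairs on the same side of 0, which include WARS and WDR25. Among the pairs on opposite sides, only CARS2 and ING1 overlapped. The part of shared reads in the ratios of these pairs was not tested. HARS2 overlaps ZMAT2 (-0.34) on its own strand, and SARS2 overlaps the low-level gene model CTC-360G5.8 (-2.38) on its own strand. MARS overlaps DDIT3 on the opposite strand, and DDIT3 had 21.6 FPKM in knockout and 12.3 FPKM in wild type, far below the 446 FPKM (knockout) and 420 FPKM (wild type) of MARS.

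The ratio of each member was also set beside those of its neighbours on the chromosome. AARS, KARS and EARS2 lie on chromosome 16. The median log2 ratio of the 20 nearest compared genes was -0.18 around AARS, -0.21 around KARS and -0.22 around EARS2. With this median taken off, AARS stood at -0.19, inside 1.2-fold, KARS at 0.11 and EARS2 at 0.13, so that KARS and EARS2 lay on the other side of 0. FARSA (-0.01), RARS (0.01), YARS (-0.10) and AIMP1 (0.02) crossed 0 in the same way, from ratios close to it. IARS, on chromosome 9, had neighbours with a median of 0.02 and stood at 0.31 after it was taken off. The part of the neighbours' values in the ratios of the members was not tested.

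**Figure D4:**
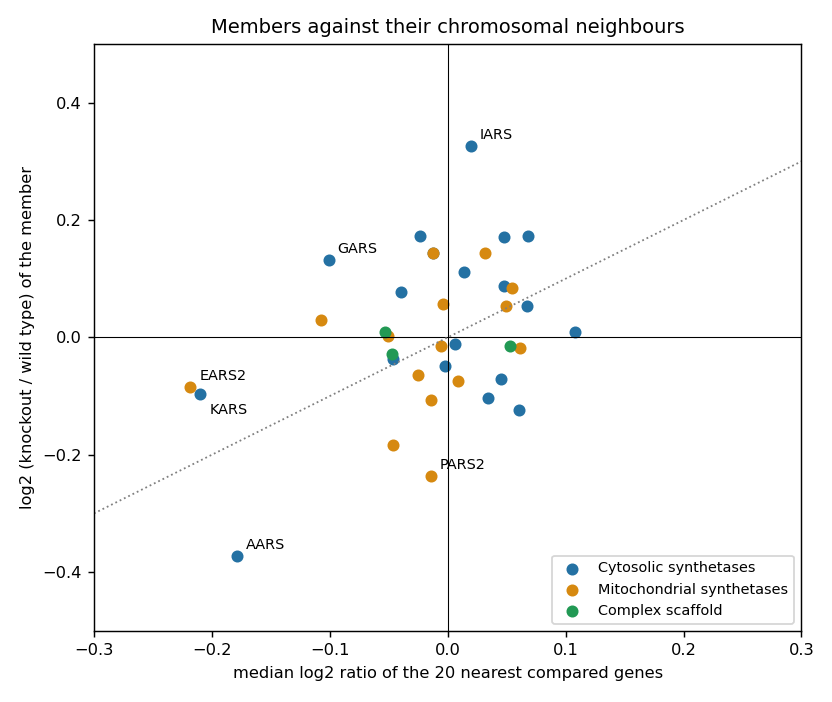
The log2 ratio of each compared member against the median log2 ratio of its 20 nearest compared genes on the chromosome, with the dotted line where both are equal. AARS, KARS and EARS2, all on chromosome 16, lie at the left with neighbour medians from -0.22 to -0.18, and IARS lies at the top with neighbours near 0.

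The ratios were also read by promoter letters and by class. The 7 cytosolic genes with the response element in a window ran from -0.37 to 0.33, with 4 above 0 (IARS, CARS, GARS and MARS) and 3 below (AARS, TARS and NARS), and a median of 0.09. The 9 with a window and no match ran from -0.10 to 0.17, with 6 above 0 and 3 below, and a median of 0.08. The 12 cytosolic synthetases widely named as ATF4 targets (AARS, CARS, EPRS, GARS, IARS, LARS, MARS, NARS, SARS, TARS, WARS and YARS) had a median of 0.05, with 7 above 0, and the other 7 compared cytosolic enzymes a median of 0.05, with 4 above 0. Across the table, the 296 compared genes with the letters in a window had a median of 0.02 and the 10297 without them a median of -0.01. Synthetases fall into structural classes, I and II, with unrelated catalytic folds. The 16 compared enzymes of class I had a median of 0.01 and the 17 of class II a median of -0.01, and IARS belongs to class I and AARS to class II.

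The letters TGGAG, a G-rich motif, were counted in the longest coding sequence of each compared member in GENCODE release 29, because the title of the series places CNBP on G-rich coding elements. These letters were chosen for this description, outside the plan, and are not taken here as a binding site of CNBP. All 37 held at least 1, as did 12266 (93.1%) of the 13180 compared genes with a coding sequence. The median was 2.96 per kilobase in the cytosolic enzymes, 3.26 in the mitochondrial ones, 2.08 in the scaffold genes and 2.84 over the 13180 genes. QARS had 14 copies (6.02 per kilobase) and a log2 ratio of 0.11, FARS2 had 10 (7.39 per kilobase) and a ratio of -0.06, and KARS had 1 (0.533 per kilobase) and a ratio of -0.10. IARS had 8 copies in 3786 bases (2.11 per kilobase) and AARS 7 in 2904 bases (2.41 per kilobase), so the members with the highest and lowest ratio were alike in this count. The ratios are of mRNA levels and do not measure translation, and a link between the count and CNBP was not tested. For IARS and for AARS, a stretch of 90 bases with the most copies (2) is shown with the motif in capitals. Stretches shifted by some bases hold the same copies. Those shown are bases 1171 to 1260 of the IARS coding sequence and 2500 to 2589 of that of AARS.
IARS: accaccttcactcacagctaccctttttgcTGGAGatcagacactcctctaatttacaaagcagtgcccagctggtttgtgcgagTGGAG
AARS: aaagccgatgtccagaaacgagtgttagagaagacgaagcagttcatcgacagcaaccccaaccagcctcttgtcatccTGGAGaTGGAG

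The valine enzymes VARS and VARS2 were listed at 0 in both columns. Every cell needs a valine enzyme, so these zeros are not read as absence, and no level or ratio is given for them. How the zeros arose was not tested. The Ensembl IDs that the table gives them are not in the primary-assembly annotation of GENCODE release 29. Of the 667 IDs in the table that are missing there, 629 (94.3%) were listed at 0 in both columns, against 1721 of 19225 (8.95%) of the IDs that are present.

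Genes around the charging step were described from lists of related factors. Over all compared genes, 48.7% stood above 0, and 1.48% were higher and 2.78% lower by 1.5-fold. The 9 other charging factors had a median of -0.14, with 4 above 0, 5 below and none at 1.5-fold. PSTK, a kinase in the making of selenocysteinyl-tRNA, had 12.9 FPKM in knockout and 9.65 FPKM in wild type (0.42). AARSD1, which removes wrongly attached amino acids from alanine tRNA, had 49.3 FPKM in knockout and 58.8 FPKM in wild type (-0.26), and its reads may be shared with a readthrough gene model. DTD2, which removes D-amino acids from tRNA, had 13.4 FPKM in knockout and 15.7 FPKM in wild type (-0.24). GATB, GATC and QRSL1, the subunits of the enzyme that makes mitochondrial glutaminyl-tRNA after EARS2, stood at 0.11, 0.08 and 0.06.

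The 5 genes of elongation factor 1, which takes charged tRNA to the ribosome, had a median of 0.14. Of these, 3 stood above 0 and 2 below, and none reached 1.5-fold. EEF1A2, the muscle and neuron form of the tRNA carrier, had 19.9 FPKM in knockout and 14.004 FPKM in wild type (0.50), while the main form EEF1A1 had 1003 FPKM in knockout and 1009 FPKM in wild type (-0.01). EEF1B2, an exchange factor, stood at 0.25, EEF1G at 0.14 and EEF1D at -0.07. The 11 mitochondrial translation factors had a median of 0.03, with 6 above 0 and none at 1.5-fold. TUFM, the mitochondrial tRNA carrier, had 235 FPKM in knockout and 277 FPKM in wild type (-0.24), GFM1 stood at 0.23 and the initiation factor MTIF3 at 0.21.

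The list of uncharged tRNA sensing and ATF4 output, which overlaps the stress response genes, stood higher than the synthetases. Of its 12 genes, 10 were above 0, 2 were higher by 1.5-fold and the median was 0.33. Of all compared genes, 48.7% were above 0 and 1.48% higher by 1.5-fold. Like the other lists, it was chosen with earlier results of these data known. DDIT3, the gene of CHOP, had 21.6 FPKM in knockout and 12.3 FPKM in wild type (0.81). DDIT3 overlaps the far more abundant MARS on the opposite strand, and the part of MARS reads in its value was not tested. CHAC1, a glutathione-degrading enzyme, had 3.27 FPKM in knockout and 2.08 FPKM in wild type (0.65), low values of unknown precision. SESN2 stood at 0.57. ATF4 itself had 208 FPKM in knockout and 176 FPKM in wild type (0.24). The sensor kinase gene EIF2AK4 had 21.5 FPKM in knockout and 23.3 FPKM in wild type (-0.12), and its activator GCN1L1 stood at -0.04. Set beside these values, the 12 synthetases widely named as ATF4 targets had the median of 0.05 given above, and the difference between the lists was not tested.

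**Figure D5:**
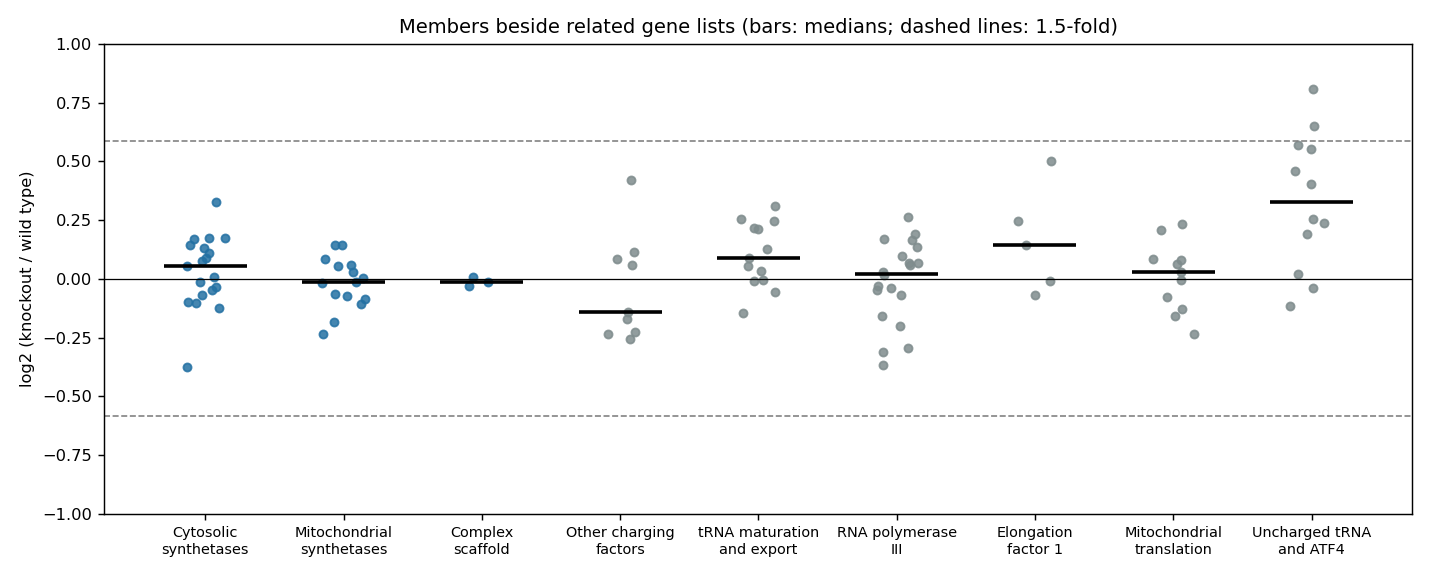
Log2 ratios of single genes in the 3 groups of members (blue) and in 6 related lists (grey), with bars at the medians and dashed lines at 1.5-fold. The uncharged tRNA and ATF4 list has the highest median (0.33), while the medians of the member groups lie between -0.01 and 0.05.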

How the data were processed

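Libraries came from HEK293 total RNA through a strand-preserving kit, per the labels' protocols. TopHat, Cufflinks, Cuffdiff and hg19 are named, without versions, in the submitters' processing notes. The FPKM values were made and deposited by the authors as 1 value per group, with no statement on how the 3 libraries were merged. The unit is not in the file header and was inferred from the tools and from sums of 612941 (knockout) and 612366 (wild type). The deposited log2 ratio column, with 368 error cells, was not used. The length of the longest transcript was deposited too and not used.

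The 13219 genes that reached 1 FPKM in either column and were above 0 in both were compared, with no pseudocount. With 1 value per group no test was run, and folds of 1.5 and 1.2 served as rules of size. The members and all lists were chosen with earlier results of these data known. All members are named, and of each related list up to 3 genes with the largest absolute ratio, while others named were chosen after their values were seen. A gene of the list of other charging factors is not reported here and is left out of its counts and median. Of the listed names, 3 were matched through synonyms. Gene places, overlaps and coding sequences came from GENCODE release 29 by Ensembl ID, on another build than the table. Promoters came from RefSeq (GRCh38.p14). The fold rule was run on simulated data with changes larger than the rule, which checks the code and not the spread between libraries. Python 3.11.15, numpy 2.4.6, pandas 2.3.3 and matplotlib 3.10.9 were used.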

Additional observations from a re-analysis of the deposited data

How the results depend on the processing

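The medians of the 3 groups and the difference between cytosolic and mitochondrial enzymes moved by no more than 0.05 on the log2 scale under every alternative: a minimum of 5 FPKM, no minimum, a pseudocount of 1 or of 0.1, ratios centred on their median, the neighbours' median taken off, overlapping members left out, and GARS and KARS left out. Chosen after seeing the data were the members on chromosome 16 left out and those with a mean under 50 FPKM left out, with the same outcome. That limit is close to or larger than most of these values, medians of 0.05, -0.01 and -0.01 and a difference of 0.07. Staying within it therefore says little about their size or side of 0. The median of the mitochondrial enzymes was 0.003 and that of the scaffold 0.02 with the neighbours' median taken off, above 0 where it had been below. The scaffold median was 0.01 where overlapping members or those under 50 FPKM were left out, when EEF1E1 alone remained. The difference between cytosolic and mitochondrial medians ran from 0.04 to 0.08. At 1.2-fold, 1 member was higher and 1 lower, against 0 and 0 at 1.5-fold. With the neighbours' median taken off as well, chosen after seeing the data, 1 was higher (IARS) and 0 lower at 1.2-fold, since AARS stood at -0.19. Of 37 members, 14 moved by more than 0.05 with the neighbours' median taken off, and 6 changed side of 0 (FARSA, KARS, RARS, YARS, EARS2 and AIMP1). No paired analysis was possible because the columns carry no replicate numbers and no test was run, and no replicate could be left out. The depth is unknown, so the precision of low values such as PARS2 could not be given.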

Other observations

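The upstream steps of tRNA supply were read from 2 further lists. Over all compared genes, 48.7% stood above 0, and 1.48% were higher and 2.78% lower by 1.5-fold. Of 13 compared genes of tRNA maturation and export, 9 stood above 0 and 4 below, with a median of 0.09 and none at 1.5-fold. POP1, a subunit of RNase P, had 13.997 FPKM in knockout and 11.3 FPKM in wild type (0.31), TSEN54, a subunit of the tRNA splicing endonuclease, had 50.7 FPKM in knockout and 42.5 FPKM in wild type (0.25), and TRMT1, a tRNA methyltransferase, had 112.5 FPKM in knockout and 94.7 FPKM in wild type (0.25). XPOT, the exporter of tRNA from the nucleus, had 124 FPKM in knockout and 107 FPKM in wild type (0.21), and was chosen after its value was seen.

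Of 20 compared genes of RNA polymerase III, which transcribes tRNA genes, and its factors, 11 stood above 0 and 9 below, with a median of 0.02. The largest differences were in polymerase subunits that were lower in the knockout column. POLR3GL had 6.20 FPKM in knockout and 7.98 FPKM in wild type (-0.37), POLR3G, its paralogue, had 17.0 FPKM in knockout and 21.1 FPKM in wild type (-0.31), and POLR3D had 23.1 FPKM in knockout and 28.3 FPKM in wild type (-0.29). BDP1 and TSEN34 were listed at 0 in both columns, like VARS and VARS2.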
